A study of Homo sapiens with 17 samples.

Results

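The cytosolic ribosomal protein genes encode the proteins of the 40S and 60S ribosomal subunits. They were followed here in LNCaP, an established human prostate cancer line that depends on androgen, and in its androgen-independent subline LNCaP-abl (abl below), after siRNA against CREB1 or FOXA1. Members were taken by symbol: RPL or RPS with a number and at most a short suffix, RPLP0 to RPLP2, and RPSA, leaving out the Y-linked RPS4Y1 and RPS4Y2 and the RPS6K kinases, with at least 10 counts summed over the 12 RNA libraries. Of 85 matching symbols, 81 were members, out of 23230 genes in the count tables: 50 of the large and 31 of the small subunit. The 4 left out were listed at 0 in every library. RPL39L with 22 and RPL3L with 25 summed counts were the members nearest the threshold. The 6 RNA groups were LNCaP and abl, each given 40 nM of siControl, siCREB1 or siFoxA1 for 3 days. During treatment both lines were in serum stripped of steroids with charcoal. LNCaP was used at passages 32 to 34 and otherwise grown in unstripped serum, whereas abl was used at passages 62 to 64 and kept in stripped serum at all times. Line, culture history and passage therefore cannot be told apart. Each group had 2 libraries. The labels do not say that they came from separate cultures, so that p-values measure only the spread between libraries, which may be technical.

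Ribosomal proteins are made in near-equal numbers, and the transcripts of most of their genes start at a C within an uninterrupted run of pyrimidines, the terminal oligopyrimidine (TOP) motif. Through this motif the translation of the whole class is held back by LARP1 and released by the growth kinase mTORC1, while transcription of these genes and of ribosome assembly factors is raised by MYC in many tumours, prostate cancer among them. CREB1 binds cyclic AMP response elements and FOXA1 is a pioneer factor of prostate luminal cells that opens chromatin for the androgen receptor.

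The shared start sequence is shown first, because it is what most members have in common outside the coding sequence. RefSeq promoters on GRCh38.p14, from 250 bases before to 50 after each listed start, were found for 66 of the 81 members. A run of at least 5 pyrimidines covering a listed start was present in 49 of these 66 (74.2%), against 3258 of 27305 genes with a promoter (11.9%). With runs of at least 8 the shares were 68.2% and 5.94%. The windows below hold 15 bases before and 15 from the start on, 5′ to 3′ on the gene's strand, with the run over the start in capitals. The first 3 have long runs, the next 3 are the P proteins of the ribosomal stalk, and the last 6 are 3 genes each followed by its divergent copy.
RPL7A (chr9:133348203-133348232, plus strand): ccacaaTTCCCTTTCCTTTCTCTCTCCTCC
RPL34 (chr4:108620561-108620590, plus strand): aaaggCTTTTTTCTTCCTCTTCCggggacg
RPL39 (chrX:119791616-119791645, minus strand): ttcttccgccagCTTCCCTCCTCTTCCTTT
RPLP0 (chr12:120201097-120201126, minus strand): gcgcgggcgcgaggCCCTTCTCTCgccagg
RPLP1 (chr15:69452803-69452832, plus strand): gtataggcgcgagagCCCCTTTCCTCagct
RPLP2 (chr11:809952-809981, plus strand): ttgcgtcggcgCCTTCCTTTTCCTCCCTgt
RPL22 (chr1:6199581-6199610, minus strand): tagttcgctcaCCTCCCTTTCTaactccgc
RPL22L1 (chr3:170870181-170870210, minus strand): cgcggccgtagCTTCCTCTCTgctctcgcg
RPS27 (chr1:153990747-153990776, plus strand): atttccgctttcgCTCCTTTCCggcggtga
RPS27L (chr15:63157463-63157492, minus strand): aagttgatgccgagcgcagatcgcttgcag
RPL26 (chr17:8383179-8383208, minus strand): aagcagcgtgtagTTCTCTTCCCTTTTgcg
RPL26L1 (chr5:172958714-172958743, plus strand): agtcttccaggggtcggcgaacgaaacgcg
RPL22L1 has a run like that of RPL22, whereas the listed starts of RPS27L and RPL26L1 have none. The full cyclic AMP response element TGACGTCA, searched on both strands of the same promoters, was in RPL3, RPL18 and RPLP2, that is 3 of 66 members (4.55%) against 2.25% of all genes. Its shorter core TGACG, which the full element contains, was in 31 members (47%) against 28.4% of all genes. The forkhead motif TGTTTAC was in 0 of 66 members against 4.19% of all genes.

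Counts on genes ran from 9092597 to 37314039 per library, with the 2 extremes in the abl siControl pair. In the siCREB1 groups CREB1 mRNA stood at 41.2% of siControl in LNCaP and 56.9% in abl, and in the siFoxA1 groups FOXA1 mRNA stood at 28.5% and 40.0%. Levels are given as CPM, each gene's counts scaled to a common library size after trimmed-mean (TMM) correction, and a level is relative to all RNA in a library, so that a shift in the number of cells of a type and in the RNA per cell cannot be told apart. All 10 prostate epithelial markers were detected in each group, although KLK3 had only 1 to 23 counts per library in abl. The summed level of 7 blood markers was 0.219 to 7.25 CPM. CSF3R had 76 counts in the first LNCaP siControl library and 87 in the first abl siControl library, and at most 2 in every other one. Other blood markers ran differently: S100A9 had 62 and 88 counts in those 2 libraries but also 59 and 89 in LNCaP siFoxA1 and 96 and 64 in abl siFoxA1, and PTPRC had 64 in the first abl siControl library and 86 and 75 in abl siCREB1. Of the 4 blood markers tested, 3 were called lower under siCREB1 in each line and 1 higher in abl. Under siFoxA1, 2 were called lower in abl and 3 in LNCaP. Of all genes, 27.5% were called higher and 23.7% lower under siCREB1 in abl, and 19.8% lower in LNCaP. The shares called lower under siFoxA1 were 26.5% in abl and 25.5% in LNCaP. The 6 fibroblast and endothelial markers summed to 83.0 to 101 CPM in LNCaP and 11.9 to 22.1 CPM in abl, with COL1A2 at 0 throughout. Their part in the results below was not tested.

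The members together took a larger share of all gene counts after CREB1 knockdown in both lines, and after FOXA1 knockdown in abl but not in LNCaP. The abl siControl libraries gave the members 6.13% and 6.01% of counts, those with siCREB1 8.96% and 8.73%, and those with siFoxA1 7.34% and 7.33%. The LNCaP siControl libraries gave 6.48% and 6.69%, those with siCREB1 7.49% and 8.29%, and those with siFoxA1 6.04% and 6.39%. No pair of groups within a line overlapped: both siCREB1 libraries were the highest of each line, and siFoxA1 lay above siControl in abl and below it in LNCaP. The ratio to siControl was 1.46 for siCREB1 and 1.21 for siFoxA1 in abl, and 1.2 and 0.944 in LNCaP. Each of these 4 comparisons gave p = 0.333 in a two-sided exact permutation test, the smallest value 2 libraries against 2 can reach. Counting error was small beside these gaps, since the Wilson 95% interval of a share was at most ± 0.0154 percentage points, which covers counting error only. RPL3, RPS2 and RPLP0, the 3 members with the most counts (not corrected for length), held 13.9% of member counts.

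**Figure D1:**
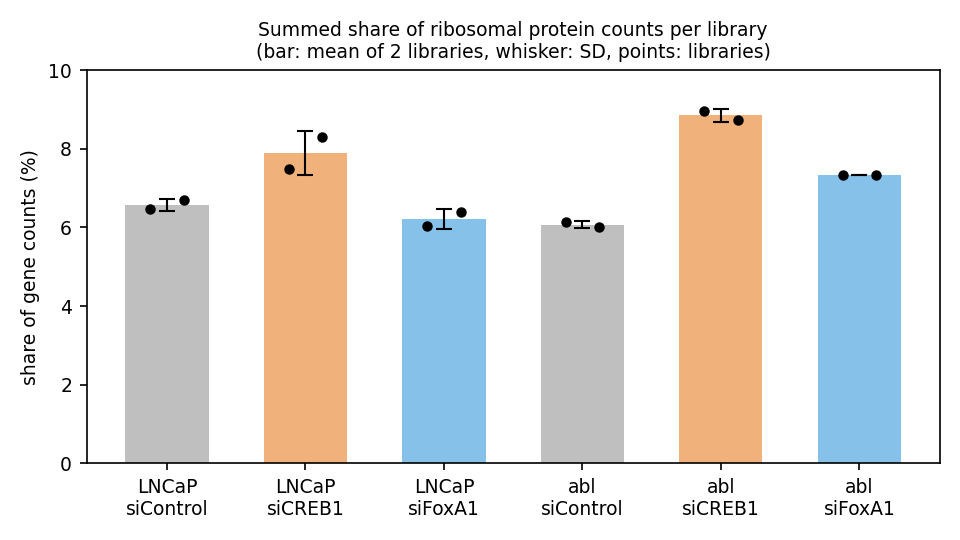
Share of all gene counts (%, y axis) taken by the 81 ribosomal protein genes in the 6 groups (x axis); bars are means of 2 libraries, whiskers the SD and points the libraries. The abl siCREB1 pair is highest at 8.96% and 8.73%, and the abl siControl pair is among the lowest at 6.13% and 6.01%.

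The first comparison asked what CREB1 knockdown did in abl. Nearly the whole module rose by a similar amount: 74 of the 79 tested members were called higher and 0 lower in edgeR's quasi-likelihood test (called means a p below 0.05 after Benjamini-Hochberg adjustment over all genes). Of all 15550 tested genes, 27.5% were called higher and 23.7% lower, 51.2% in all. The median log2 change of the members was 0.55, a 1.47-fold level, with an interquartile range of 0.46 to 0.70, against a median of 0.03 and a range of -0.34 to 0.38 over all genes. Their spread was narrow, with an SD of 0.20 against 0.77 over all genes. Most members are abundant and the 15550 genes were not matched to them in level, which can affect such an SD. RPL3L and RPL39L had too few counts to be tested. Both siCREB1 libraries lay above both controls for 76 members and below them for 0, against 39.9% and 35.3% of all genes.

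RPL23, a protein of the 60S subunit that can bind and inhibit MDM2, led the rise. It stood at 557 and 529.6 CPM in the abl siControl libraries and 1163 and 1133 CPM under siCREB1, with no overlap between the groups. Its log2 change was 1.08 ± 0.07 (SE, edgeR adjusted p = 6.31e-08). RPS27, a zinc-finger protein of the 40S subunit, went from 625 and 638 CPM to 1218 and 1275 CPM, a log2 change of 0.98 ± 0.06 (adjusted p = 4.18e-08). RPL31, which sits at the exit of the peptide tunnel, went from 529 and 566 CPM to 1086 and 1049 CPM (0.96 ± 0.09 on the log2 scale). RPL11 and RPL34 followed at 0.93 ± 0.10 and 0.88 ± 0.07. The groups did not overlap for any of these 5 genes. Of the 5 members that were not called, RPL10L and RPL36A were scarce, RPL17 was low, and RPL10 and RPL28 were abundant. RPL28 had 728 and 628 CPM in the controls and 713 and 715 CPM with siCREB1, with the siCREB1 values between the controls. RPL10, with 1036 and 1011 CPM and then 1150.4 and 1121 CPM, had a log2 change of 0.15 ± 0.07 (adjusted p = 0.0859) and was called when either LNCaP siCREB1 library was left out of the shared fit (0.16 each time).

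FOXA1 knockdown in abl raised most members too, with exceptions. Of the 79 tested, 58 were called higher and 3 lower, against 29.9% and 26.5% of all genes (56.5% called in all), and the median log2 change was 0.36 against 0.03 over all genes. Both siFoxA1 libraries lay above both controls for 73 members and below them for 4, against 40.6% and 36.4% of all genes. RPL31 rose to 948 and 886 CPM, RPL23 to 924 and 887 CPM and RPL34 to 561 and 519.6 CPM, with log2 changes of 0.74, 0.74 and 0.72. Both comparisons in abl share the siControl libraries, so these values are not independent of those under siCREB1. The 3 members that fell were RPLP1, RPL28 and RPL10L. RPLP1, an acidic protein of the stalk that recruits translation factors, had the lowest change of the 79: it went from 1264 and 1105 CPM to 629 and 612 CPM, a log2 change of -0.93 ± 0.07 (SE, edgeR adjusted p = 1.33e-07). RPL28 went to 535 and 601 CPM (-0.26 ± 0.10, adjusted p = 0.039), and this call was lost without the first abl siControl library (-0.14), without the first abl siFoxA1 library (-0.17), and without any single abl siCREB1 or LNCaP siFoxA1 library of the shared fit (-0.25 each). RPL10L, an intronless copy of RPL10 with 15 to 47 counts per library in these groups, had -0.84 ± 0.34 and lost its call without any one abl library.

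In LNCaP, CREB1 knockdown raised fewer members and by less. Of the 79, 46 were called higher and 0 lower, against 17.8% and 19.8% of all genes (37.6% called in all), and the median log2 change was 0.22 against 0.00 over all genes. Both siCREB1 libraries lay above both controls for 54 members and below them for 2, against 33.5% and 33.8% of all genes. The 2 siCREB1 libraries differed from each other: without the first, 54 members were called higher and the median was 0.35, and without the second, 31 were called higher and 3 lower and the median was 0.17. RPS27 rose most, from 717 and 775 CPM to 1366 and 1441 CPM (0.91 ± 0.06, SE, edgeR adjusted p = 3.04e-07). RPL31 went from 479 and 603 CPM to 803 and 859 CPM (0.62 ± 0.09), RPL37 from 627 and 686 to 925 and 1011 CPM (0.56 ± 0.07) and RPL41, the shortest ribosomal protein, from 1523 and 1542 to 2151 and 2312 CPM (0.54 ± 0.06). None of the 4 overlapped between groups. RPS27L, a copy of RPS27 known as a p53 target, rose by 0.65 ± 0.13 (adjusted p = 0.00172). RPL10L was called here and not in abl, and its LNCaP call was lost without the first siControl or the second siCREB1 library (0.48 each). RPL23, the largest rise in abl, went from 726 and 761 CPM to 902 and 1032 CPM (0.38 ± 0.07).

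FOXA1 knockdown in LNCaP did not move the module in one direction. Of the 79 members, 7 were called higher and 18 lower, where 24.4% of all genes were called higher and 25.5% lower, 49.8% in all. Both siFoxA1 libraries lay above both controls for 16 members and below them for 36, against 36.4% and 37.1% of all genes. The share of members called lower was thus near the background and the share called higher was below it. The median log2 change was -0.07, against -0.01 over all genes. Without the first siFoxA1 library 13 members were called and the median was 0.01, and with library totals in place of TMM scaling 11 were called higher and 14 lower. RPLP1 fell again and further, from 1213 and 1108 CPM to 395 and 421 CPM (-1.51 ± 0.07, SE, edgeR adjusted p = 3.13e-09), with no overlap between the groups. RPL14, which went from 770.0 and 805 to 463 and 516 CPM, had a log2 change of -0.69 ± 0.08 (adjusted p = 6.51e-06). RPL28, RPL13A and RPL5 also fell, with log2 changes of -0.52, -0.50 and -0.45. On the other side, RPS27L rose from 70.3 and 85.6 CPM to 184 and 159 CPM (1.15 ± 0.13, adjusted p = 8.93e-06) and RPL26L1, a copy of RPL26, from 36.5 and 34.5 to 52 and 54.5 CPM (0.58 ± 0.07, adjusted p = 8.95e-06). RPL41, RPL31, RPL22L1, RPL10 and RPS26 were the other 5 called higher, at 0.18 to 0.27. Of these, all but RPL41 lost the call when a single LNCaP library was left out, with values between 0.10 and 0.27.

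**Figure D2:**
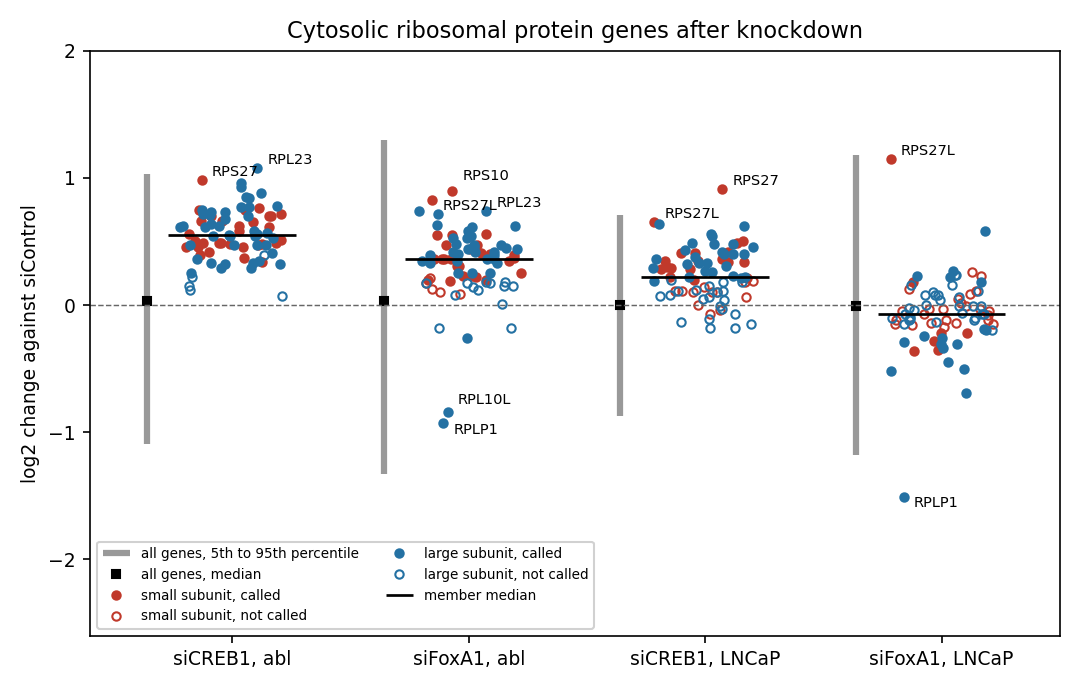
Log2 change against siControl (y axis) of the 79 tested ribosomal protein genes under each knockdown (x axis); filled points are called, open points not, red is the small and blue the large subunit, the black line is the member median, and grey bars and squares give the 5th to 95th percentile and median of all genes. The points lie in a narrow band above 0 under siCREB1 in abl (median 0.55) and around 0 under siFoxA1 in LNCaP (median -0.07), where RPLP1 lies at -1.51 and RPS27L at 1.15.

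Between the lines, which have separate controls, 45 members were called higher under siCREB1 in both. That is 45 of 46 in LNCaP and 45 of 74 in abl. With 74 of the 79 called higher in abl, most of those called in LNCaP had to overlap. Of all genes, 27.5% were called higher under siCREB1 in abl and 17.8% in LNCaP. For siFoxA1, 29.9% were called higher and 26.5% lower in abl, and 24.4% and 25.5% in LNCaP. The share of all genes called in both lines was not counted for either knockdown. Under siFoxA1, RPL10, RPL26L1, RPL31, RPL41, RPS26 and RPS27L were called higher in both lines and RPL28 and RPLP1 lower in both. RPL41 went in LNCaP from 1523 and 1542 CPM to 1828 and 1878 CPM and in abl from 1889 and 1895 CPM to 2641 and 2561 CPM, with no overlap in either line. RPL13A, RPL7, RPL7A, RPS15A and RPS7 were called higher under siFoxA1 in abl and lower in LNCaP. The LNCaP call was lost for RPL7 without the second siControl (-0.16) or either siFoxA1 library and for RPS7 without the first siFoxA1 library (-0.20), and the abl call of RPS7 without any one library compared (0.18 to 0.23). Across the 79 members, the siCREB1 changes in abl and in LNCaP had Pearson's r = 0.64 and Spearman's rho = 0.65, and the siFoxA1 changes had r = 0.63 and rho = 0.62. These are descriptions across genes, which are not independent, and each member keeps its length, copies and depth in both lines. Without RPLP1 and the divergent copies the values were r = 0.75 and rho = 0.79 for siCREB1 and 0.68 for both measures for siFoxA1, over 73 members.

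Set directly against each other, the 2 knockdowns differed. In LNCaP 62 members were called higher under siCREB1 than under siFoxA1 and 1, RPS27L, lower, against 20.6% and 22.5% of all genes (43% in all), with a median log2 difference of 0.33. The siCREB1 libraries lay above both siFoxA1 libraries for 66 members and below them for 3, against 35.5% and 37.9% of all genes. Without the second LNCaP siCREB1 library 41 members were called in all, against 63. In abl 47 were called higher and 3 lower (RPL10, RPL26L1 and RPS27L), against 20% and 21% of all genes (41% in all), with a median of 0.23. Libraries did not overlap for 71 members higher and 5 lower under siCREB1, against 34.8% and 36.7% of all genes. Here the number called, 50 in all, was 26 without the first abl siCREB1 library, 33 without the first and 28 without the second abl siFoxA1 library. RPLP1 had the widest gap in both lines, at 1.34 ± 0.07 (SE, edgeR adjusted p = 1.62e-08) in abl and 1.69 ± 0.07 (adjusted p = 1.15e-09) in LNCaP. RPS27 was also higher under siCREB1, by 0.61 ± 0.06 in abl and 0.78 ± 0.06 in LNCaP. RPS27L was lower under siCREB1 than under siFoxA1, by -0.37 ± 0.13 in abl and -0.50 ± 0.13 in LNCaP, and each of these calls was lost without 1 siCREB1 or 1 siFoxA1 library (the second and the first, respectively).

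Whether the lines responded differently was tested as the difference of the knockdown effects in the same fit. The log2 change under siCREB1 was called higher in abl than in LNCaP for 45 members and lower for 0. Of all genes, 14.8% were called higher and 10.8% lower (25.5% in all), and the median difference was 0.34 against 0.05. This count fell to 16 without the first LNCaP siCREB1 library, to 18 without the first abl siCREB1 library and to 29 without the second abl siControl library. For siFoxA1 the difference was called for 60 members, all higher in abl, against 17.9% and 14.7% of all genes (32.6% in all), with a median of 0.42 against 0.05. Both tests use the siControl libraries, so their values are not independent. RPL7A showed the largest difference under both knockdowns, 0.74 ± 0.10 and 0.82 ± 0.10 (edgeR adjusted p = 0.000176 and 4.55e-05). The LNCaP siControl libraries had 2094 and 2152 CPM, the siCREB1 ones 2101 and 2448 and the siFoxA1 ones 1796 and 1901. The abl siControl libraries had 1205 and 1164 CPM, the siCREB1 ones 2159 and 2089 and the siFoxA1 ones 1854 and 1783. The abl siControl libraries were thus the low ones, and the siCREB1 libraries of both lines overlapped. RPL23 differed by 0.70 ± 0.10 and 0.80 ± 0.10, and RPL13A by 0.69 ± 0.11 and 0.75 ± 0.12.

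**Figure D3:**
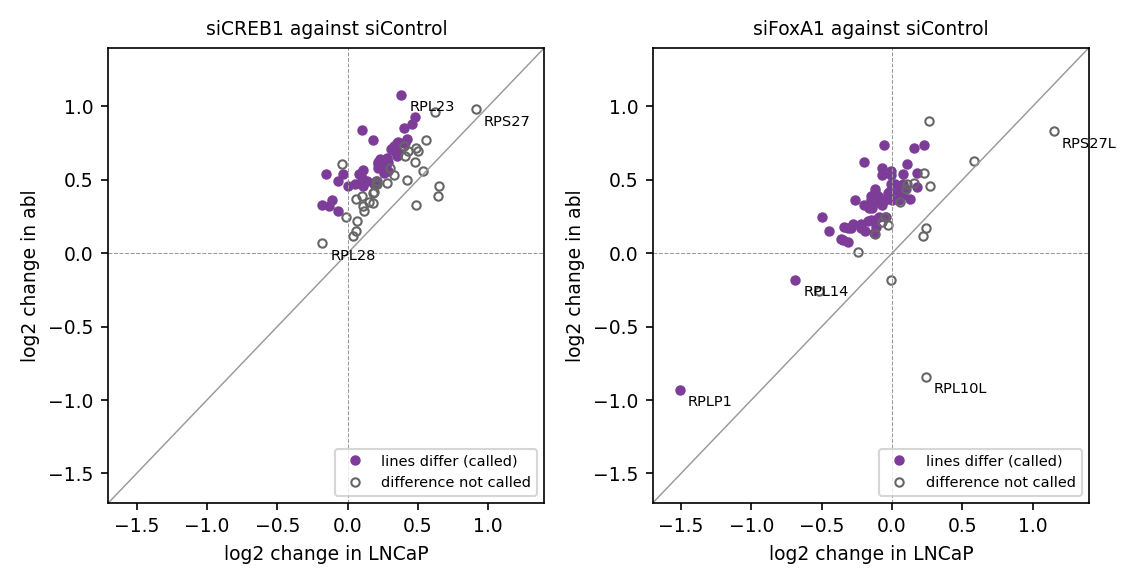
Log2 change against siControl in abl (y axis) plotted against that in LNCaP (x axis) for the 79 tested members, under siCREB1 (left) and siFoxA1 (right); filled points are members whose change differed between the lines, open points those not called, and the diagonal marks equal change. Most points lie above the diagonal, 76 under siCREB1 and 74 under siFoxA1. The median difference over all genes was also above 0, at 0.05 for each knockdown, and their share above the diagonal was not counted.

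Under siControl the lines differed in individual members. Of the 79, 10 were called higher in abl siControl and 28 lower, against 30.5% and 33.1% of all genes (63.6% in all), and the median was -0.07 against -0.02. Libraries did not overlap for 15 members higher and 37 lower in abl, against 37.9% and 40.6% of all genes. The count of 38 calls fell to 23 or 24 when the first or second abl siControl library was left out, and to 23 without the first siControl library of both lines, where CSF3R was counted. The split of higher and lower calls was 6 and 34 with library totals, 10 and 19 with relative log expression (RLE) size factors and 11 and 21 in DESeq2. RPL5, which carries the 5S rRNA into the 60S subunit together with RPL11, was higher in abl: 1387 and 1323 CPM against 762 and 781 CPM in LNCaP (0.81 ± 0.07, SE, edgeR adjusted p = 1.71e-07). RPL11 was lower in abl, with 307 and 334 CPM against 444 and 593 CPM (-0.69 ± 0.10, adjusted p = 3.37e-05). The 2 partners thus differed between the lines in opposite directions, with no overlap of libraries for either. RPL22L1 and RPL8 were higher in abl by 0.65 ± 0.07 and 0.54 ± 0.08, whereas RPL7A, RPL13A and RPL35 were lower, at -0.84 ± 0.07, -0.69 ± 0.08 and -0.60 ± 0.07.

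By position in the ribosome, the stalk genes had a median change below that of all members in each knockdown. The stalk is formed by RPLP0, which anchors RPLP1 and RPLP2, and by RPL12 at its base. All 4 were called higher under siCREB1 in abl, at 0.25 to 0.47, and 0 of 4 under siCREB1 in LNCaP, against 27.5% and 17.8% of all genes. In LNCaP RPL12, RPLP0 and RPLP1 were each called higher in some other settings (0.18 to 0.32), library totals and single libraries left out among them. The RPLP2 call in abl was lost without the second siControl library (0.18) or the first siCREB1 library (0.22). Under siFoxA1 RPLP1 had the lowest change of the 4 in both lines. In abl it was the only 1 of the 4 called lower, against 26.5% of all genes. In LNCaP 3 of the 4 were called lower, against 25.5% of all genes, with changes from -1.51 to -0.11, so that RPLP1 differed there in size and not in direction. RPLP2, which pairs with RPLP1, stood at 402 and 365 CPM in abl siControl and 419.6 and 444 CPM in abl siFoxA1, with a log2 change of 0.17 ± 0.07 (edgeR adjusted p = 0.0537) that was called higher without the first abl siControl library (0.25) or without any one LNCaP siControl or siCREB1 library (0.17 to 0.18). In LNCaP it went from 499 and 463 to 391 and 398 CPM with a log2 change of -0.29 ± 0.07, a call lost without the first siControl library (-0.21). RPLP0 stood at 2833 and 2737 CPM and 2898 and 2710.1 CPM in abl (0.01 ± 0.08), and at 2833 and 2816 and 2278 and 2491 CPM in LNCaP, where its change of -0.24 ± 0.08 was called but not without the first siControl (-0.22) or first siFoxA1 (-0.16) library.

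**Figure D4:**
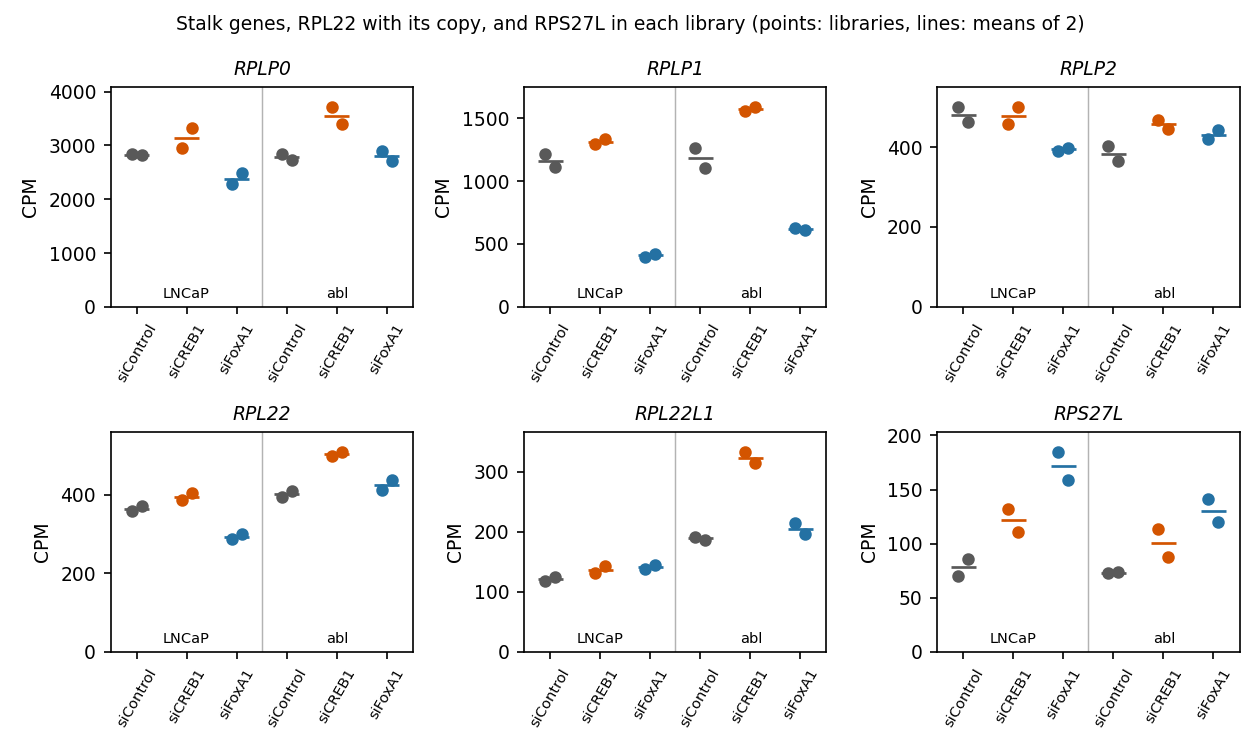
CPM (y axis, from 0) of 6 ribosomal protein genes in each library of the 6 groups (x axis), with points for libraries and lines for the mean of 2. RPLP1 drops under siFoxA1 in both lines, to 395 and 421 CPM in LNCaP and 629 and 612 CPM in abl, while RPLP0 and RPLP2 stay nearer their controls and RPS27L is highest under siFoxA1.

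The pair that binds 5S rRNA rose under siCREB1 in abl, RPL5 to 1988 and 1965 CPM (0.54 ± 0.07) and RPL11 from 307 and 334 to 614 and 604 CPM (0.93 ± 0.10). In LNCaP RPL11 was called higher under siCREB1 (0.48 ± 0.10) and RPL5 was not (-0.03 ± 0.07). For the role lists that follow, 27.5% of all genes were called higher under siCREB1 in abl and 17.8% in LNCaP. Of 8 genes lining the peptide tunnel and its exit, 7 were called higher under siCREB1 in abl and 5 in LNCaP, led by RPL31 in both, and RPL39 went from 344 and 352 to 648 and 607 CPM in abl (0.85 ± 0.07). Of 6 genes on the mRNA entry and exit side of the 40S subunit, 6 were called higher under siCREB1 in abl and 3 in LNCaP, with RPS28 at 0.72 ± 0.09 and 0.49 ± 0.09. RPS26, which contacts the mRNA upstream of the start codon, stood in abl at 402 and 402 against 401 and 371 CPM under siFoxA1 and siCREB1, with a log2 difference of -0.06 ± 0.06 that was not called, and at 276 and 273 CPM under siControl. Of the genes mutated in Diamond-Blackfan anaemia, a failure of red cell production, 13 were tested. All 13 were called higher under siCREB1 in abl (median 0.66) and 9 in LNCaP (median 0.35), and RPS27 rose most in both. Under siFoxA1, 11 of the 13 were called higher in abl, against 29.9% of all genes, and 1 higher and 2 lower in LNCaP, against 24.4% and 25.5%. RPS10 headed this list under siFoxA1 in abl at 0.90 ± 0.23, but it rests on 25 to 140 counts per library there and its call was lost without the first siFoxA1 library (0.60). Its siCREB1 call in abl was lost without either siControl library (0.65 and 0.59) or the second siCREB1 library (0.32), without either LNCaP siFoxA1 library (0.61), and in DESeq2 (0.59, adjusted p = 0.0953). The medians of the subunits lay close together: that under siCREB1 in abl was 0.56 for 48 large and 0.51 for 31 small subunit members, and under siFoxA1 in abl it was 0.36 for both.

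Divergent copies of ribosomal protein genes did not always follow their parents. RPS27L took 8.92% and 9.95% of the counts on RPS27 and RPS27L together in the LNCaP controls, 8.82% and 7.15% with siCREB1, and 18.8% and 16.1% with siFoxA1. In abl these shares were 10.5% and 10.3%, then 8.55% and 6.45%, then 15.0% and 12.6%. The share was thus higher under siFoxA1 and lower under siCREB1 than under siControl in every library. RPS27L itself rose under siCREB1 too, by 0.46 ± 0.13 (SE, edgeR adjusted p = 0.0107) in abl, a call lost without the first siControl (0.47) or first siCREB1 library (0.27). Under siFoxA1 in abl it rose from 73.1 and 73.4 to 141 and 120.0 CPM (0.83 ± 0.13, adjusted p = 0.000116). RPL22L1, a copy of RPL22 that can replace it in the ribosome, took 24.7% and 25.1% of the joint counts in LNCaP siControl, 25.3% and 26.1% with siCREB1 and 32.5% and 32.4% with siFoxA1. RPL22 fell with siFoxA1 from 359.7 and 370.4 to 287 and 300.5 CPM (-0.31 ± 0.06, adjusted p = 0.000567), and RPL22L1 stood at 118 and 124 and 138 and 144 CPM. In abl the RPL22L1 share was 32.6% and 31.2% under siControl and 39.9% and 38.2% under siCREB1, and 34.2% and 30.9% with siFoxA1, which overlapped siControl. With siCREB1 in abl RPL22L1 rose from 192 and 186 to 332 and 314 CPM (0.77 ± 0.07, adjusted p = 5.73e-07). RPL26L1 was called higher in each knockdown, at 0.33 to 0.63, and RPL7L1 was called lower under siFoxA1 in LNCaP (-0.19 ± 0.06), a call lost without the first siFoxA1 (-0.10) or second siControl library (-0.15). RPL10L, RPL39L and RPL3L held at most 0.617%, 0.0534% and 0.00461% of the joint counts. These shares compare raw counts and not levels per length.

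The values of some members are uncertain. Ribosomal protein genes have many processed pseudogenes with nearly the same sequence, so reads may be split between them in a way the count tables do not show. RPL17, RPS10 and RPL36A overlap readthrough genes (RPL17-C18ORF32, RPS10-NUDT3 and RPL36A-HNRNPH2) that were listed at 0 counts over all libraries. The 3 members themselves had only 5305, 1147 and 890 counts over the 12 libraries, and whether the overlap bears on this was not tested. RPL36A was called in none of the 4 knockdown comparisons, with SEs of 0.38 to 0.44, so that a change of the size of the member median in any of them lay within 2 SE. RPL17 was also called in none of the 4, at 0.07 to 0.24.

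The median response of members with and without a start run lay close together, as did that of members with and without the core TGACG. Under siCREB1 in abl the median log2 change was 0.58 for the 49 members with a start run and 0.49 for the 17 without, and under siCREB1 in LNCaP it was 0.22 and 0.26. For siFoxA1 the medians were 0.35 and 0.42 in abl and -0.07 and -0.01 in LNCaP. Members with the core TGACG had a median of 0.55 under siCREB1 in abl against 0.58 for the others, and 0.26 against 0.22 in LNCaP. RPL3, RPL18 and RPLP2, which hold the full element, had 0.54, 0.29 and 0.25 under siCREB1 in abl. RPL18 and RPLP2 thus lay below the interquartile range of all members there (0.46 to 0.70).

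The authors' deposited table of genes for each knockdown listed 74 members under siCREB1 in abl, all higher, and 66 under siFoxA1 in abl, 62 of them higher. For LNCaP it listed 38 under siCREB1, all higher, and 19 under siFoxA1, 5 of them higher. Every listed member had the same sign in the authors' deposited table as here. Both were made with edgeR from the same samples, and the deposited tables list only genes that passed a threshold. The match in sign is therefore not an independent check. Of the listed members, 74, 61, 38 and 18 were also called here, and 0, 0, 8 and 7 were called here but not listed. Of 23230 genes in the count tables, 81 of them members, the authors' deposited tables listed 7997 for siCREB1 and 8708 for siFoxA1 in abl. For LNCaP they listed 4593 and 6778. How many of all listed genes were higher or lower was not counted. In the fit used here 51.2% of all tested genes were called for siCREB1 and 56.5% for siFoxA1 in abl. The shares in LNCaP were 37.6% and 49.8%.

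Genes of the wider translation machinery were called in both directions. The counts of this list and those that follow stand beside 27.5% of all genes called higher and 23.7% lower under siCREB1 in abl, 29.9% and 26.5% under siFoxA1 in abl, 17.8% and 19.8% for siCREB1 in LNCaP, and 24.4% and 25.5% for siFoxA1 in LNCaP. Among 16 other TOP mRNAs, mostly elongation and initiation factors, 9 were called higher and 2 lower under siCREB1 in abl, with a median of 0.18, and 5 were higher and 4 lower with siFoxA1 in abl. In LNCaP 2 were higher and 8 lower under siCREB1, and 1 higher and 11 lower under siFoxA1. EEF2, the ribosomal translocase, fell under siCREB1, with log2 changes of -0.68 ± 0.10 in abl and -1.05 ± 0.10 in LNCaP (edgeR adjusted p = 5.23e-05 and 3.79e-06). PABPC1, the cytoplasmic poly(A) binding protein, fell under siFoxA1, at -0.55 ± 0.08 in abl and -0.76 ± 0.08 in LNCaP. EIF4A2, an RNA helicase of the initiation complex, rose in abl by 0.68 ± 0.07 under siCREB1 and 0.57 ± 0.07 under siFoxA1, and in LNCaP by 0.50 ± 0.06 and 0.23 ± 0.06. Of 4 ribosomal protein genes under other symbols, 3 were higher and 0 lower under siFoxA1 in abl and 2 higher and 1 lower in LNCaP. FAU, a fusion that yields RPS30, rose by 0.44 ± 0.07 in abl and 0.40 ± 0.07 in LNCaP under siFoxA1, and GNB2L1, which encodes the 40S scaffold protein RACK1, had -0.14 ± 0.07 in abl, not called, and fell in LNCaP, at -0.44 ± 0.07. Of 28 ribosome assembly and nucleolar genes, 16 were higher and 6 lower under siCREB1 in abl, 17 and 8 under siFoxA1 in abl, 2 and 6 under siCREB1 in LNCaP, and 14 and 4 under siFoxA1 in LNCaP. DKC1, the pseudouridine synthase of small nucleolar particles, rose by 2.00 ± 0.07 under siFoxA1 in LNCaP, and GNL3, a nucleolar GTPase, fell by 1.43 ± 0.07 under siFoxA1 in abl.

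Among 8 tested small nucleolar RNA host transcripts of the TOP class, 2 were higher and 2 lower under siCREB1 in abl, and 6 higher and 0 lower in LNCaP, with SNHG1 at -0.83 ± 0.16 and SNHG7 at 0.67 ± 0.13 in abl and SNHG12 at 0.80 ± 0.20 in LNCaP. For siFoxA1 the counts were 1 higher and 3 lower in abl and 3 higher and 0 lower in LNCaP. Initiation factors outside the TOP class gave 5 higher and 7 lower of 16 under siCREB1 in abl and 0 and 8 in LNCaP. Of 17 genes of the mTORC1 pathway with LARP1, 3 were higher and 8 lower under siCREB1 in abl, 3 and 9 under siFoxA1 in abl, and 6 and 5, then 6 and 3 in LNCaP. The strongest falls in abl were those of SESN2 and DDIT4, both inhibitors of mTORC1, with log2 changes of -2.49 ± 0.10 and -1.61 ± 0.12 with siCREB1, and of -2.32 ± 0.10 and -2.18 ± 0.12 with siFoxA1. DEPTOR, another mTORC1 inhibitor, rose under siFoxA1 in both lines, by 1.66 ± 0.07 in abl and 2.38 ± 0.07 in LNCaP. In LNCaP SESN2 rose by 0.92 ± 0.10 under siFoxA1. Of 9 tested genes of MYC and its partners, 5 were higher and 2 lower under siCREB1 in abl. The largest called changes there were those of MXD4 (0.85 ± 0.12) and MXD1 (0.64 ± 0.22). Under siCREB1 in LNCaP 3 were higher and 2 lower, and MYC fell by 0.80 ± 0.14. No such fall was seen in abl, where the changes of the 9 genes under siCREB1, MYC among them, ran from -0.26 to 0.85. The line difference under siCREB1 was called higher in abl for 2 of the 9 and lower for 0, against 14.8% and 10.8% of all genes. The largest difference in the list was 1.39. Whether these genes and the ribosomal protein genes move for a shared reason was not tested.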

How the data were processed

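RNA was sequenced from 6 groups of 2 libraries each. The count tables deposited by the authors hold raw read counts per gene, made, per the submitters' processing notes, with HTSeq 0.5.3p9 from alignments to hg19 by TopHat2 2.0.8 and Bowtie2 2.1.0, after CASAVA 1.8. Strand setting and gene annotation are not given in the sources used here. Each count file has 2 columns per group, taken as 2 libraries, and columns named SIC were read as siControl; the 8 repeated control columns were identical and used once. Libraries of a group differed by more than sampling noise (chi-square per degree of freedom 4.35 to 10.2). Lines without a gene name (no feature 54.8% to 58.3%, ambiguous 0.774% to 0.924%) were left out.

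All 12 libraries entered 1 fit in edgeR 4.0.16 (R 4.3.3), with TMM scaling, filterByExpr and a quasi-likelihood test, leaving 6 residual degrees of freedom. P-values were adjusted by Benjamini-Hochberg over 15550 genes and called below 0.05. SE is the log2 change over the square root of F. The common biological coefficient of variation was 0.0625. Recovery of known changes was tested on simulated counts. The authors' deposited tables give log2 fold changes, CPM values on a log2 scale and p-values for each knockdown, from edgeR 3.0.6 per the submitters' processing notes.

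Members and lists were chosen with earlier results of these data known. Genes named are CREB1, FOXA1, per comparison the 5 largest rises and falls among called members without overlap whose mean log2 CPM reached 3 (line differences: called only), all genes of the role lists, the 2 largest called changes of other lists with 3 or more calls, and members at the count threshold. RPL10L, RPL18, RPL36A, RPS15A and CSF3R are also named and were chosen after their values were seen, as was the alternative without the first siControl library of both lines. RefSeq promoters (GRCh38.p14) gave the start runs. Alternatives were RLE factors, library totals, scaling without the members, a looser filter, DESeq2 1.42.0, only the groups compared, leaving out each library and a replicate block. Same-numbered libraries of different groups deviated together weakly or not at all (correlations -0.047 to 0.231). The highest value, 0.231, was between the siControl libraries of the 2 lines. For siCREB1 with siFoxA1 it was 0.115 in LNCaP and 0.123 in abl. The hg19 peak lists and 8 further ChIP-seq samples were not analysed here, and some genes of the lists are not reported here.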

Additional observations from a re-analysis of the deposited data

Results flagged for a closer look

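The effect of both knockdowns on the ribosomal protein genes differed between the lines by a direct test of the difference in edgeR. The siCREB1 effect differed for 45 of 79 members, all with the higher log2 change in abl. The differences were largest in RPL7A (0.74 on the log2 scale), RPL23 (0.70), RPL13A (0.69), RPL22L1 (0.60) and RPL5 (0.57). The siFoxA1 effect differed for 60 members, all with the higher log2 change in abl. Here RPL7A (0.82), RPL23 (0.80), RPL13A (0.75), RPL11 (0.65) and RPL7 (0.62) differed most. The shares of all genes called with a higher log2 change in abl were 14.8% and 17.9%. A higher value can be a smaller fall: under siFoxA1 RPLP1 had -0.93 in abl and -1.51 in LNCaP. RPL13A, RPL7 and RPL7A were called higher under siFoxA1 in abl and lower in LNCaP. Of RPL7A, RPL13A, RPL23 and RPL11, each was also lower in abl than in LNCaP under siControl, with log2 differences of -0.84, -0.69, -0.45 and -0.69, and the siControl libraries enter both tests. RPL5 and RPL22L1 were higher in abl under siControl, by 0.81 and 0.65.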

How the results depend on the processing

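Leaving out each library in turn gave counts of called members of 70 to 75 for siCREB1 and 50 to 68 for siFoxA1 in abl, 34 to 54 and 13 to 29 in LNCaP, 23 to 38 between the lines under siControl, 16 to 53 and 40 to 61 for the line differences under siCREB1 and siFoxA1, and 26 to 56 and 41 to 68 for siCREB1 against siFoxA1 in abl and LNCaP. The summed share ratios ranged over 1.438 to 1.476 and 1.196 to 1.22 in abl and 1.137 to 1.258 and 0.917 to 0.971 in LNCaP. These ranges include every direction of call. Where a group is left with 1 library, it is assumed to vary like the others. Without the first siControl library of both lines, where CSF3R and S100A8 were counted, 23 members were called between the lines under siControl. The abl siFoxA1 ratio was 1.237 on TMM-scaled totals and 1.226 without the 3 members with the most counts. With the replicate block, which the labels give no ground for, the counts were 74, 64, 47, 25, 39, 50, 62, 53 and 65 in the same order, each within 1.5 times the main count. Of 226 named gene results, 56 changed side of the threshold in at least 1 setting and 0 reversed. Levels under about 5 CPM (RPL10L, RPL36A, RPS10) are limited by depth.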
